A study of Rattus norvegicus with 8 samples.

Results

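Laminins, integrins and their partners in the basal lamina were followed in rat ovary after a gonadotropin injection. The set comprised every array probe named for a laminin chain, an integrin subunit or integrin-named protein, nidogen, agrin, dystroglycan, fibronectin, Sparc or a fibulin. It held 45 of the 26214 gene names on the array, measured by 56 of its 30367 probes. All 56 probes passed the filter on dim signal, and 52 of them were well above background on all 8 arrays. The study compared ovaries of rats given PMSG (gonadotropin from pregnant mare serum, which acts mainly like follicle-stimulating hormone) with ovaries of rats given the vehicle. Female rats aged 26 days received a subcutaneous dose of 50 IU PMSG in 0.2 ml buffered albumin, or that buffer alone, and ovaries were collected after 48 h, at 28 days of age. Total ovarian RNA (500 ng) was labelled with Cy3 and read on 1-colour Agilent arrays, 4 for each treatment. The array titles alone gave the groups, which are called PMSG arrays and control arrays here.

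A basal lamina is a thin sheet of laminin and type IV collagen networks, joined by nidogens and heparan sulfate proteoglycans. A laminin is a trimer of 1 alpha, 1 beta and 1 gamma chain, and cells bind it through integrins, which pair 1 alpha with 1 beta subunit, and through dystroglycan. In the ovary such a sheet encloses each follicle and separates granulosa cells from the theca, and others underlie the surface epithelium and surround blood vessels. Because whole ovaries were measured, fewer cells of a type and less RNA per cell cannot be told apart in any value below.

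The labels were checked first against genes known to respond to gonadotropins. On the PMSG arrays the steroidogenic genes Cyp11a1, Star and Lhcgr were lower, with log2 differences of -3.36, -2.75 and -1.93, and the early follicle gene Amh was higher by 3.03 (adjusted p 2.32e-04, 0.00541, 0.00114 and 2.61e-04, limma). These directions run against those generally known for gonadotropin treatment. Whether the titles of the groups were exchanged was not tested. Every direction below follows the titles as given, and would be reversed if they were exchanged. Fshr, Inha and Ccnd2 did not pass the threshold. The 75th percentile of the signal lay between 769 and 1103 over the 8 arrays, and 80.8% to 84.6% of probes were well above background. Arrays of the same label correlated at 0.977 to 0.993 and arrays of different labels at 0.960 to 0.972. The labels do not say whether each array held 1 animal, so p-values measure the spread between these samples.

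Values are log2 signals minus the 75th percentile of their array, a difference is PMSG minus control on that scale with its standard error (SE), and a gene is represented by its brightest probe. A gene was called different at an adjusted p under 0.05 in limma. Levels of different probes are not ranked against each other. The probes below belong to laminin, nidogen and integrin genes on which the results turn; for Itga8 and Itgb1 the dimmer of the gene's probes is shown. Each is 60 bases long, and its position is that of the array files on rn4. A span wider than the probe means that the match crosses an intron. No annotation of that build was used here, so exons are not named. Those of Itga8, Itgb1, Itga1 and Lamb3 read lower signals on the PMSG arrays, those of Lamb2 and Lamc3 higher ones, and those of Lamc1 and Nid2 gave calls that the brighter probe of the gene did not. They are printed 5′ to 3′ in the order gene, position and strand, then sequence.
Itga8, chr17:86532664-86532723, minus strand: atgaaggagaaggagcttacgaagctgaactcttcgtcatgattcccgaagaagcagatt
Itgb1, chr19:58611137-58611196, minus strand: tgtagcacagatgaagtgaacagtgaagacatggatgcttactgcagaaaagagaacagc
Itga1, chr2:47107893-47112038, minus strand: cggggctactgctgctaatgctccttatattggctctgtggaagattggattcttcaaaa
Lamb3, chr13:109187343-109189861, plus strand: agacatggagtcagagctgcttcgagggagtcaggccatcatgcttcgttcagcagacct
Lamb2, chr16_random:1230338-1230397, plus strand: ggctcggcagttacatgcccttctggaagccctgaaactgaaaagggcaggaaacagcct
Lamc1, chr13:68251375-68252423, minus strand: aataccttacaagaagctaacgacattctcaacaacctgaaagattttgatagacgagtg
Lamc3, chr3:11040365-11042516, plus strand: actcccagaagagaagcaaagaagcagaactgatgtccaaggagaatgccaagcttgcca
Nid2, chr15:4840358-4840417, minus strand: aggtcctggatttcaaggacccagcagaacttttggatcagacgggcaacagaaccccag

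Of the 45 genes, 15 differed between the labels, 6 higher and 9 lower on the PMSG arrays. That share, 33.3%, lies near the 34.5% of all 21926 tested genes that were called (18% higher and 16.5% lower), and the count is no result about the set. A difference of at least 2-fold was called for 5 genes, Itga8, Lamb3, Itga5, Itga1 and Itga2b, where 12% of all genes reached it. The groups did not overlap for 17 genes, against a background of 37%. The median difference of the set was -0.08 and its median size 0.43, beside 0.12 and 0.39 over all tested genes. With each array centred on its median instead, the median over all probes moved by -0.17, from 0.11 to -0.05, and the set held 3 higher and 10 lower genes. The share of higher calls among all called probes went from 51.4% to 34.5% with that scaling. At the level of probes, 20 of 56 differed, 8 higher and 12 lower, where 34.2% of all tested probes did.

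**Figure D1:**
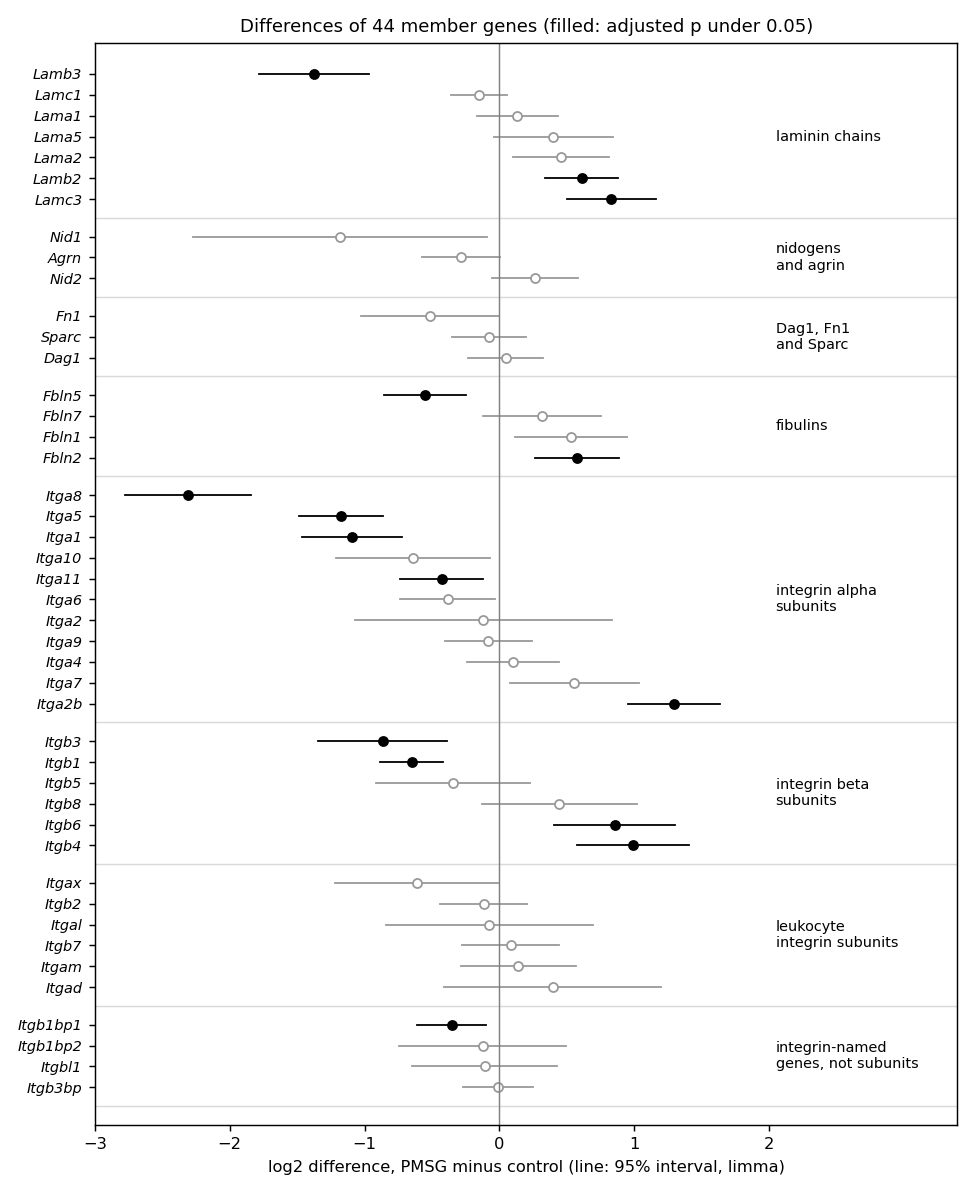
Log2 difference (PMSG minus control, horizontal axis) of 44 of the 45 genes, each with its 95% interval from limma, grouped by family; filled points passed an adjusted p of 0.05. The lower calls run from Itga8 at -2.31 to Itgb1bp1 at -0.35, and the higher calls from Fbln2 at 0.58 to Itga2b at 1.30.

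Transcripts of the integrin beta 1 subunit and of several of its partners were lower on the PMSG arrays. Itgb1, the common partner of many alpha subunits, and 4 of the 11 alpha subunit genes (Itga8, Itga5, Itga1 and Itga11) passed the test downward. Over all tested genes, 16.5% were called lower. All 4 of these alpha chains are known to pair with beta 1, but so are all others of the 11 except Itga2b. The pairing therefore does not set the lower chains apart. Itga8 encodes a receptor for RGD ligands such as nephronectin and fibronectin. It stood at 1.75, 1.15, 1.63 and 1.89 on control arrays 1 to 4 and at -0.68, -0.32, -1.07 and -0.75 on PMSG arrays 1 to 4. All PMSG arrays lay below all control arrays, and the difference of -2.31 (SE 0.20, adjusted p 1.91e-04, limma), 4.96-fold, was the widest of the set. The second Itga8 probe, printed above and placed 105261 bases upstream in rn4, was well above background on all 4 control arrays and on 0 PMSG arrays, so it gives a bound of at least 2.70-fold (adjusted p 3.33e-04, limma).

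Itgb1 itself stood at 2.72, 2.63, 2.63 and 2.59 on the control arrays and at 1.77, 2.08, 2.04 and 2.09 on the PMSG arrays. The control arrays lay within a narrow band, and the PMSG arrays were all below it, array 1 the lowest. The difference was -0.65 (SE 0.10, adjusted p 0.00194, limma), and the second probe gave -0.99 (SE 0.09, adjusted p 2.03e-04).

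Itga1, a collagen and laminin receptor chain, was at 4.29, 4.10, 4.35 and 4.27 in control and at 3.41, 2.79, 3.01 and 3.43 in PMSG. No array of either label reached into the range of the other, and the difference was -1.09 (SE 0.16, adjusted p 0.00146, limma). Itga5, the alpha chain of the classical fibronectin receptor, was at -2.48, -2.61, -2.78 and -2.68 in control and at -3.99, -3.94, -3.82 and -3.48 in PMSG. Again the groups were apart, by -1.17 (SE 0.13, adjusted p 5.00e-04, limma), and by -0.71 with normexp background correction. Itga11, a collagen receptor chain of fibroblasts, was at -2.06, -1.99, -2.13 and -2.15 in control and at -2.43, -2.88, -2.41 and -2.33 in PMSG. Its difference of -0.43 (SE 0.13, adjusted p 0.0400, limma) did not withstand the loss of single arrays: leaving out PMSG array 1 or 3 or any 1 control array gave an adjusted p between 0.0522 and 0.102. The calls of Itga8, Itgb1, Itga1 and Itga5 held under all 18 alternatives.

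The other alpha subunits of the set that use beta 1 did not pass, and Itga3 and Itgav were not in it. Itga6, a laminin receptor chain that also pairs with beta 4, stood at -3.76, -3.54, -3.47 and -3.51 in control and at -4.07, -4.21, -3.96 and -3.56 in PMSG. PMSG array 4 fell within the control range, and the difference of -0.38 (SE 0.15) had an adjusted p of 0.0892 (limma), 0.0106 without that array. Leaving PMSG array 4 out raised the calls among all 25303 tested probes from 8658 to 11382. The same holds wherever a value without that array is given below. The differences of Itga10 (-0.64, adjusted p 0.0808; 0.0490 without PMSG array 4), Itga2 (-0.12), Itga9 (-0.08), Itga4 (0.10) and Itga7 (0.56, adjusted p 0.0721; 0.0118 without control array 3) were not called either. These genes encode collagen receptor chains (Itga2, Itga10), chains that bind VCAM1, fibronectin or tenascin (Itga4, Itga9) and a laminin receptor chain of muscle (Itga7). The dimmer Itga10 probe had the opposite sign, at 0.61 (adjusted p 0.236, limma).

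Endothelial markers also moved, with 58.3% called, where 34.5% of all genes were. Of 12 tested, 5 were lower on the PMSG arrays (Tek, Flt1, Kdr, Eng and Esam) and 2 higher (Vwf and Cldn5). Their mean level was -0.92 to -0.59 over the control arrays and -1.04 to -0.87 over the PMSG arrays, and 11 of the 12 were above background on every array. Of 8 theca and interstitial markers (50% called), 3 were lower and 1 higher, with mean levels of 2.38 to 2.62 and 1.20 to 2.22. The part of these cells in the lower integrin signals was not tested.

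Itga2b ran the other way, and was the alpha subunit with the only higher call. It encodes the platelet integrin alpha IIb, which forms the fibrinogen receptor together with beta 3. Its level was -1.0, -0.79, -0.59 and -1.25 on the control arrays and 0.28, 0.35, 0.44 and 0.49 on the PMSG arrays. The 4 PMSG arrays were tightly grouped above every control array, with a difference of 1.30 (SE 0.15, adjusted p 4.94e-04, limma), 2.46-fold. Itgb3, the known partner of Itga2b, was at -4.45, -4.58, -4.30 and -4.58 in control and at -5.23, -5.06, -5.09 and -5.98 in PMSG. It was lower on every PMSG array, by -0.86 (SE 0.21, adjusted p 0.0140, limma), but with normexp background correction the difference was -0.22 and not called (adjusted p 0.188). None of the 7 platelet markers tested (such as Pf4 and Gp9) passed, and their mean level was -3.40 to -2.96 in control and -3.31 to -2.54 in PMSG.

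The beta subunits of epithelia were higher on the PMSG arrays. Itgb4, which pairs with alpha 6 in hemidesmosomes, was at 1.20, 1.14, 1.53 and 1.01 in control and at 2.04, 1.95, 2.21 and 2.65 in PMSG. All PMSG arrays exceeded all control arrays, by 0.99 (SE 0.18, adjusted p 0.00393, limma). Itgb6, an epithelial subunit that binds fibronectin and latent TGF-beta, was at -1.56, -1.71, -1.68 and -1.91 in control and at -1.27, -0.84, -1.0 and -0.34 in PMSG. The groups were apart there too, by 0.86 (SE 0.19, adjusted p 0.0107, limma); with median centring the difference was 0.69 and not called (adjusted p 0.0632). Itgb5 (-0.34) and Itgb8 (0.45), beta subunits that pair with alpha V, were not called.

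Markers of oviduct and surface epithelium moved with these subunits, with 58.3% called, where 34.5% of all genes were. Of 12 tested, 7 were higher on the PMSG arrays (Muc1, Cdh16, Dnah5, Foxj1, Pax8, Upk3b and Krt18) and 0 lower, and 10 of them were above background on every array. Their mean level was -0.93 to -0.44 over the control arrays and 0.16 to 0.67 over the PMSG arrays. Whether those cells account for any of the Itgb4 and Itgb6 signal was not tested.

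Chains known to pair with each other were also described by how the log2 ratio of their signals within an array differed between labels. The 5 pairs were chosen after the values had been seen, so this is a description with no test. The ratio of Itga2b to Itgb3 was higher on the PMSG arrays by 2.16, and that of Itgb4 to Itga6 by 1.37. Over Itgb1, Itga8 was lower by -1.66, Itga5 by -0.52 and Itga1 by -0.44. These ratios to Itgb1 use its brighter probe, which differed by -0.65. The dimmer Itgb1 probe differed by -0.99, near the -1.17 of Itga5 and the -1.09 of Itga1. Over that probe the ratios would differ by less. The ratio of Itga1 to Itgb1 overlapped between labels, and the other four did not. With normexp background correction the ratio of Itga5 to Itgb1 differed by -0.07 alone.

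The 6 integrin genes typical of leukocytes did not pass in either direction. Itgb2 (-0.11), the common beta chain of that group, and its partners Itgal (-0.07), Itgam (0.14), Itgad (0.40) and Itgax (-0.61) all missed the threshold, as did Itgb7 (0.08), the beta chain of the gut-homing integrins. Leukocyte markers did move over the same arrays, with 52.9% called, where 34.5% of all genes were. Of the 17, 8 were higher on the PMSG arrays (among them Ptprc, Cd68, Aif1, Laptm5, Cd3d, Cd4 and Cd8a) and S100a8 was lower. Their mean level was -2.15 to -1.73 in control and -1.68 to -1.35 in PMSG. Itgax was above background on 3 control arrays and 1 PMSG array. Its call appeared without control array 4 (-0.83, adjusted p 0.0299, limma).

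**Figure D2:**
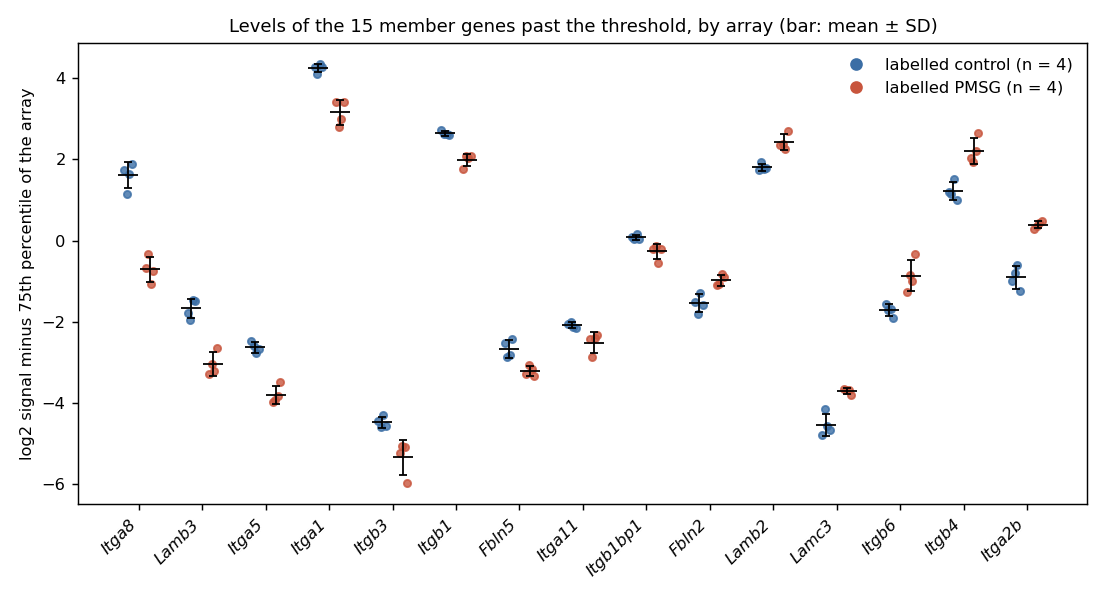
Level of the 15 called genes on each array (points, log2 signal minus the 75th percentile) with the mean and SD of the 4 control and 4 PMSG arrays. For each of the 15 genes the points of the 2 labels do not overlap; the gap is widest for Itga8, at 1.61 ± 0.32 against -0.70 ± 0.31.

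Among the 8 laminin chains, 2 were higher on the PMSG arrays (Lamb2 and Lamc3) and 1 was lower (Lamb3). That share, 37.5%, lies near the 34.5% of all tested genes that were called. Lamb3, the beta chain of the epithelial laminin-332, was at -1.78, -1.95, -1.46 and -1.48 in control and at -3.27, -3.05, -3.22 and -2.64 in PMSG. Every PMSG array was below every control array, with a difference of -1.38 (SE 0.18, adjusted p 7.96e-04, limma), 2.60-fold.

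Lamb2, the beta chain of many mature basement membranes, was at 1.75, 1.93, 1.76 and 1.80 in control and at 2.34, 2.38, 2.25 and 2.71 in PMSG. The labels did not overlap, and the difference of 0.61 (SE 0.12, adjusted p 0.00522, limma) fell to 0.44 with median centring (adjusted p 0.0966). Lamc3, the gamma 3 chain, was at -4.78, -4.15, -4.58 and -4.66 in control and at -3.66, -3.69, -3.68 and -3.81 in PMSG. It was higher on every PMSG array, by 0.83 (SE 0.14, adjusted p 0.00296, limma; 0.49 with normexp). Its second probe was above background on 1 control and 3 PMSG arrays, too few for a value.

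The alpha chains in the set, Lama1, Lama2 and Lama5, were not called. Such chains carry the main cell-binding sites of a laminin, and Lama3 and Lama4 were not in the set. Lama1, the alpha chain of the first laminin described and one known in follicles, was at -0.95, -1.08, -1.44 and -1.30 in control and at -1.02, -0.92, -1.22 and -1.07 in PMSG. Its groups overlapped (0.13, SE 0.13, adjusted p 0.445, limma). Lama5, an alpha chain of mature basement membranes, was at 0.13, 0.45, 0.45 and -0.05 in control and at 0.37, 0.67, 0.44 and 1.1 in PMSG. These overlapped too (0.40, SE 0.19, adjusted p 0.141, limma). Lama2, the muscle and nerve alpha chain, lay between -0.75 and -0.54 in control and between -0.45 and 0.14 in PMSG. Without overlap between the groups, it still missed the threshold narrowly (0.46, SE 0.16, adjusted p 0.0520, limma), and passed it without PMSG array 1 (0.0420) or 3 (0.0367).

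Lamc1, the gamma chain found in most laminins, gave a different answer at each of its probes. The brighter one was at 3.17, 3.03, 3.13 and 3.23 in control and at 2.97, 3.10, 2.94 and 2.94 in PMSG, an overlap that left a difference of -0.15 (SE 0.09, adjusted p 0.228, limma). The dimmer one, whose sequence crosses an intron 9811 bases away in rn4, was at -1.46, -1.55, -1.32 and -1.57 in control and at -2.40, -2.36, -2.35 and -2.02 in PMSG. All 4 PMSG arrays were lower there, by -0.81 (SE 0.12, adjusted p 0.00134, limma). The mean of both probes differed by -0.48 (adjusted p 0.00383). The laminin chain Lamb1 and the proteoglycan Hspg2 were not analysed here.

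Nidogens and agrin link or decorate the laminin network. Nid1, which bridges laminin and type IV collagen, was at -0.58, 1.49, 0.81 and -0.34 on the control arrays and at -1.23, -0.97, -1.04 and -0.12 on the PMSG arrays. The control arrays spanned over 2 log2 units and PMSG array 4 lay within them, so the difference of -1.18 (SE 0.47) was not called (adjusted p 0.0881, limma). Without PMSG array 4 it was -1.42 (adjusted p 0.0493), and without control array 1 it was -1.49 (adjusted p 0.0469). Nid2, the second nidogen, differed by 0.27 at its brighter probe (adjusted p 0.170, limma) and by 0.71 as the mean of both probes (adjusted p 0.0120). Its dimmer probe, 38842 bases upstream, was at -5.65, -6.45, -5.16 and -5.88 in control and at -4.67, -4.78, -4.39 and -4.67 in PMSG, higher on every PMSG array by 1.16 (SE 0.25, adjusted p 0.00886, limma). Agrn, a proteoglycan that binds laminin and dystroglycan, was not called (-0.29, adjusted p 0.116, limma); without PMSG array 4 the difference was -0.37 (adjusted p 0.0312).

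Over the 11 genes with 2 probes, both probes were called for Itgb1, and 1 of them for Lamc1 and Nid2. Both passed for Itga8 and Lamc3 too, but there the dimmer probe was above background on only 4 of the 8 arrays. The sign was the same for 7 genes and opposite for Fn1, Itga10, Itgam and Itgb5, none of which had a called probe. The Itgam probes share a run of 34 bases, in capitals here, and differ after it. The brighter probe begins with the run, and only the dimmer one has bases before it.
Itgam, brighter probe, chr1:187385524-187385583, plus strand: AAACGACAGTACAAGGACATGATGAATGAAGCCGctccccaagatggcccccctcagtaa
Itgam, dimmer probe, chr1:187385032-187385565, plus strand: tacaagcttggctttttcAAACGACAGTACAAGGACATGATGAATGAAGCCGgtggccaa
Their differences were 0.14 and -0.47 (adjusted p 0.567 and 0.207, limma).

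**Figure D3:**
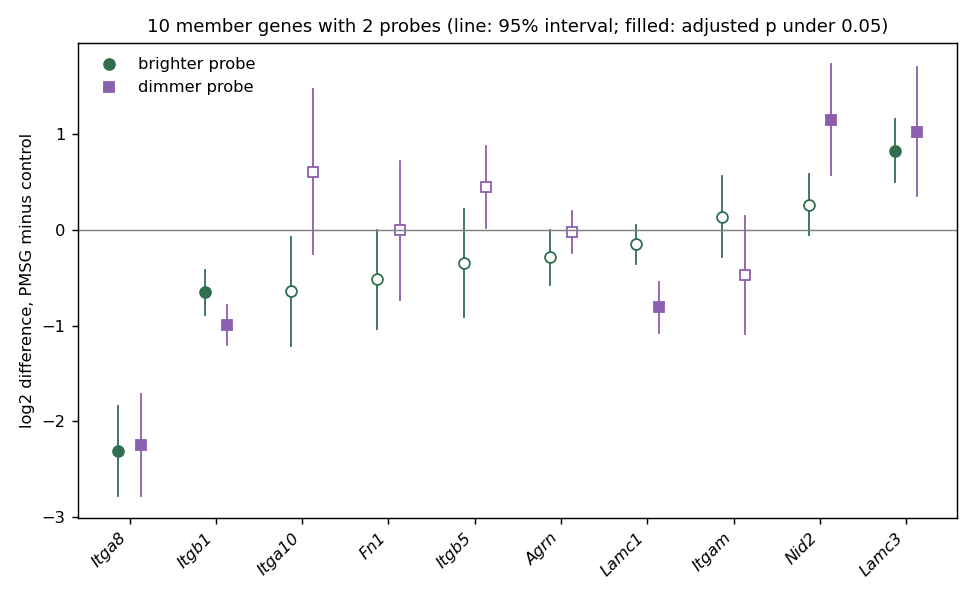
Log2 difference (PMSG minus control) with its 95% interval for both probes of 10 of the 11 genes with 2 probes; filled symbols passed an adjusted p of 0.05. The Itgb1 probes gave -0.65 and -0.99, Lamc1 gave -0.15 and -0.81 and Nid2 gave 0.27 and 1.16; the fitted values of the dimmer Itga8 and Lamc3 probes rest partly on arrays at background.

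The fibulins, which bind laminin, nidogen or elastin, split by member. Fbln2 was at -1.51, -1.82, -1.28 and -1.58 in control and at -1.10, -1.07, -0.81 and -0.90 in PMSG. It was higher on every PMSG array, by 0.58 (SE 0.13, adjusted p 0.0122, limma), and 0.41 with median centring (adjusted p 0.0628). Fbln5, needed for elastic fibres, was at -2.51, -2.87, -2.82 and -2.43 in control and at -3.28, -3.06, -3.17 and -3.35 in PMSG. There the PMSG arrays were all lower, by -0.55 (SE 0.13, adjusted p 0.0133, limma; -0.32 with normexp). Fbln1, a laminin-binding matrix protein, did not overlap between labels but missed the threshold (0.53, SE 0.18, adjusted p 0.0518, limma), and passed it without control array 3 (0.65, adjusted p 0.0269). Fbln7 was not called (0.32, adjusted p 0.227); without PMSG array 4 the difference was 0.49 (adjusted p 0.0228).

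Dystroglycan, fibronectin and Sparc did not differ beyond the test's threshold. Dag1, the laminin receptor of the dystrophin complex, was at 6.43, 6.36, 6.27 and 6.43 in control and at 6.54, 6.57, 6.46 and 6.12 in PMSG. PMSG array 4 was the lowest of all 8 and the other PMSG arrays the highest (0.05, SE 0.12, adjusted p 0.769, limma). Fn1, the main ligand of Itga5, was at 3.85, 3.41, 3.88 and 3.73 in control and at 3.11, 3.81, 2.77 and 3.12 in PMSG. PMSG array 2 alone lay within the control range. The difference was -0.52 (SE 0.22, adjusted p 0.109, limma), and -0.72 without that array (adjusted p 0.0151). The dimmer Fn1 probe showed no difference (9.29e-05, SE 0.32, adjusted p 0.9998, limma). Sparc, a collagen-binding matricellular protein, was at 5.42, 5.78, 5.74 and 5.65 in control and at 5.44, 5.45, 5.72 and 5.67 in PMSG, and the groups overlapped (-0.08, SE 0.12, adjusted p 0.636, limma).

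Of the 4 integrin-named genes that are not subunits, Itgb1bp1 was called, a share of 25% where 34.5% of all tested genes were. It encodes ICAP-1, which binds the tail of beta 1 and limits its activation. Its level was 0.10, 0.03, 0.17 and 0.05 in control and -0.20, -0.13, -0.54 and -0.20 in PMSG, lower on every PMSG array by -0.35 (SE 0.11, adjusted p 0.0413, limma). The call was lost on leaving out PMSG array 1 or 3 or any 1 control array, with adjusted p from 0.0553 to 0.0987. Itgb1bp2 (-0.12), Itgb3bp (-0.01) and Itgbl1 (-0.11) were not called.

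Genes that act with the set were taken from 4 lists. Of 33 tested adaptors of integrin adhesions, 18 differed, 14 lower and 4 higher, with a median of -0.30; that is 54.5%, where 34.5% of all tested genes were called. The kindlins, which bind integrin beta tails and activate them, led the list. Fermt3, the kindlin of blood cells, was lower by -1.84 (SE 0.21, adjusted p 4.86e-04, limma), Fermt2, the widespread form, was lower by -1.15 (SE 0.11, adjusted p 2.38e-04), and Fermt1, the epithelial form, was higher by 1.49 (SE 0.15, adjusted p 3.05e-04). In the ILK, PINCH and parvin complex, Ilk (-0.41), Lims1 (-0.59) and Parva (-0.94) were lower, while Lims2 (-0.27), Parvb (0.22) and Parvg (0.56) were not called. Of the tetraspanins that associate with integrins, Cd151 was lower (-0.96), Cd9 was higher (1.09) and Cd81 was not called (-0.23).

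Of 22 other basement membrane genes, 6 were lower and 5 higher (50% called, 34.5% over all genes), with a median of 0.23. The lower ones included both chains of the commonest type IV collagen, Col4a1 (-0.85, SE 0.09, adjusted p 3.34e-04, limma) and Col4a2 (-1.06, SE 0.13, adjusted p 6.66e-04), named after their values were seen. The widest differences were those of Loxl2, a collagen crosslinking enzyme (-1.74, SE 0.17), and Col18a1, the source of endostatin (-1.69, SE 0.11). The netrin Ntn1 was above background on 3 control and 4 PMSG arrays, a bound of at least 1.90-fold higher in PMSG. Col4a5, Ntn4, Smoc2 and Bcam, a receptor for laminin alpha 5, were the other higher genes (0.68, 0.91, 0.72 and 0.99).

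Of 30 matricellular and integrin ligand genes, 9 were higher and 8 lower (56.7% called, 34.5% over all genes), with a median of 0.13. Vtn, the integrin ligand vitronectin, was higher by 1.97 (SE 0.14, adjusted p 9.03e-05, limma), Efemp1, a fibulin-like matrix protein, was higher by 1.45 (SE 0.20), and Comp, a thrombospondin family member, was lower by -1.96 (SE 0.15). Of 22 genes of the dystroglycan complex and its glycosylation, 5 were higher and 4 lower, a share of 40.9% near the 34.5% over all genes, with a median of 0.03. Sspn, the sarcospan of the dystrophin complex, was higher by 1.98 (SE 0.15, adjusted p 9.27e-05, limma). The syntrophin Sntb1 was above background on 2 control and 4 PMSG arrays, at least 3.08-fold higher in PMSG.

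**Figure D4:**
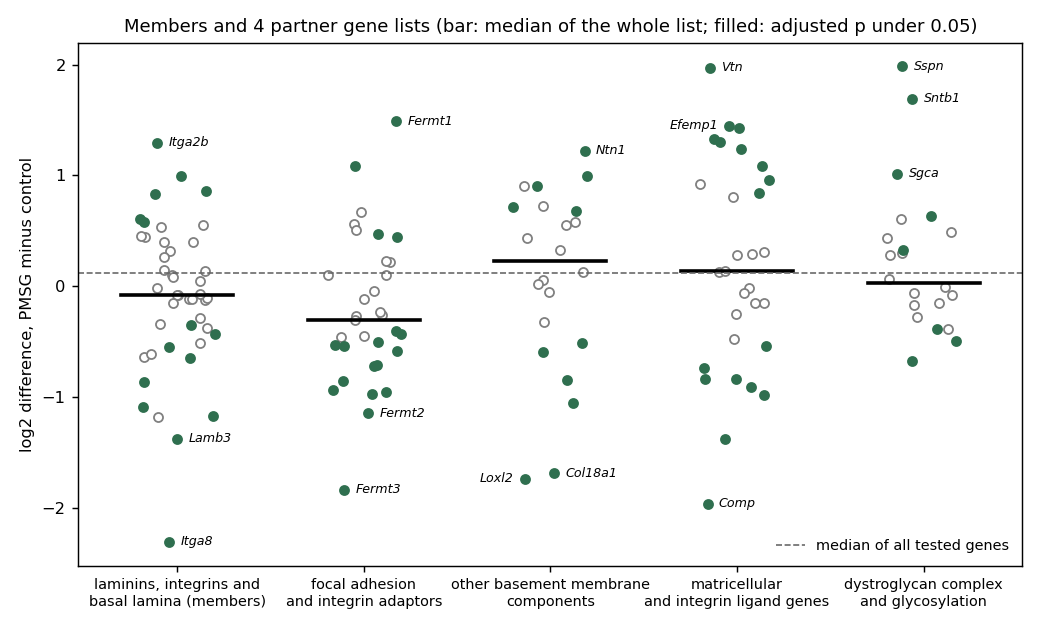
Log2 difference (PMSG minus control) of 44 genes of the set and of 106 tested genes of 4 lists of partner genes, with the median of each whole list (bar) and of all tested genes (dashed line, 0.12); filled points passed an adjusted p of 0.05, and the 3 widest of the differences plotted in each column are named. The adhesion adaptors have the lowest median, -0.30, and the fitted values of Ntn1 and Sntb1 rest on control arrays partly at background.

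Promoter sequence was available for 32 of the 45 genes in a RefSeq table of the GRCr8 assembly, and the 250 bases before the start of each were searched on both strands for 6 motifs chosen after the values had been seen. The cAMP response element TGACGTCA, to which a factor activated by gonadotropin signalling is known to bind, occurred in 1 of the 32, that of Lamb3, and in 1.59% of all 33469 promoters. The GC box GGGCGG occurred in 15 of 32 (46.9%) and in 30.5% of all. The AP-1 site TGANTCA was present in 1 of 32 (6.34% of all), the RUNX core TGTGGT in 6 (14.5%), the GATA site TGATAA in 2 (7.97%) and the ETS site CCGGAA in 4 (12.6%). The promoters of Lamb3 and Itga2b are printed because they belong to the lowest laminin chain and the highest integrin gene of the set. That of Itga8, the gene with the widest difference of the set, held none of the 6 motifs. Capitals mark the CRE of Lamb3, whose first base lies 44 bases before the start. In Itga2b they mark, in order, an ETS site, a RUNX core, a GATA site and a further ETS site. Both ETS sites stand as the reverse complement. A match describes these letters and shows no binding.
Lamb3, GRCr8 chr13:107362303-107362552, plus strand: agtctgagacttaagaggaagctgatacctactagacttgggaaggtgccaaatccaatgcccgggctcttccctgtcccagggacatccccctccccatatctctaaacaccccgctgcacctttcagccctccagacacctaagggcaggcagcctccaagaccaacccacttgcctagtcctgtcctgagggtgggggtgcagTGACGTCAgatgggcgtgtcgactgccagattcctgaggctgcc
Itga2b, GRCr8 chr10:87925834-87926083, minus strand: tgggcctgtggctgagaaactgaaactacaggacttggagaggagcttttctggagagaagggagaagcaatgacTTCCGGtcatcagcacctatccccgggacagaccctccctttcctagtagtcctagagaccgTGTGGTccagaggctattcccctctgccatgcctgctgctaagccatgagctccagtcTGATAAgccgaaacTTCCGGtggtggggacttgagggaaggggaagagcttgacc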

How the data were processed

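Ovary RNA was measured on 8 arrays, 4 per label, all on 1 slide with 1 scan date. The deposited scanner files give spot intensity as read by Agilent Feature Extraction 11.5.1.1 per the file headers, after detrending, background subtraction and surrogate values for spots not above background, and probe positions are on rn4. The deposited table of log2 values matched the scanner files as log2 signal minus each array's 75th percentile, and served as an alternative. Control and outlier spots were left out, spots of a probe were averaged on the log2 scale, and the 75th percentile of each array was subtracted. A probe was tested where at least 0.5 of its spots were well above background on at least 4 of 8 arrays, which left 25303 probes. The comparison of labels used limma 3.58.1 (R 4.3.3) with no covariate, and p-values were adjusted by Benjamini-Hochberg over every tested probe. The procedure was tested on simulated data. Where a probe was above background throughout one label but not the other, only a bound is given: the brighter mean against a dim mean in which every array's value was raised, if needed, to its lowest signal well above background. The number of arrays limits the precision.

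The genes, lists and tests were chosen with earlier results of these data known. Values of all arrays are given for the up to 10 called genes with the widest difference in each direction and for Lama1, Lama5, Lamc1, Itgb1, Itga6, Nid1, Dag1, Fn1 and Sparc, and those of the dimmer Lamc1 and Nid2 probes were added after seeing them. Of each partner list the 3 called genes with the widest difference are named; further names were chosen after their values were seen. Alternatives were median centring, quantile normalization, normexp with an offset of 50 (on mean and background signals), the deposited values, 2 filters, array weights, slide row or replicate number as a block, the mean over probes, and each array left out. Columns not used numbered 0. Some genes of the set and lists are counted but not reported here by name.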

Additional observations from a re-analysis of the deposited data

Results flagged for a closer look

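In 6 of 112 groups of 4 arrays, 1 array stood apart from the other three by more than Dixon's limit, where chance alone gives about 5.6. All 6 were on the PMSG side. The gap over the range was 0.897 for Fbln7 (array 4 at -3.74, the others from -3.09 to -3.02) and 0.868 for Itga2 (array 2 at -5.94, the others from -4.49 to -4.27). It was 0.846 for the brighter probe of Itgb1 (array 1 at 1.77, the others from 2.04 to 2.09) and 0.837 for Itgb1bp1 (array 3 at -0.54, the others from -0.20 to -0.13). For the dimmer probe of Lamc1 it was 0.869 (array 4 at -2.02, the others from -2.40 to -2.35), and for Lamc3 0.839 (array 4 at -3.81, the others from -3.69 to -3.66).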

How the results depend on the processing

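Of the 15 called genes, 8 were called under all 18 alternatives (Itga1, Itga2b, Itga5, Itga8, Itgb1, Itgb4, Lamb3 and Lamc3), 7 lost the call under at least 1, and none changed sign. The count of called genes ranged from 13 to 20 with single arrays left out, the highest without PMSG array 4, and that of genes higher in PMSG was 3 with median centring. The replicate block gave 13 called genes and 7346 probes, and Itga11, Itgb1bp1 and Fbln5 were not called under it. Deviations of same-numbered arrays correlated at 0.04, 0.04, 0.18 and -0.02. Control array 3 alone had its same-numbered PMSG array as best match. Such values cannot tell whether the numbers mark pairs or a shared batch. Signs changed only for uncalled genes. Median centring gave -0.1187 for Dag1, -0.0647 for Itga4, -0.0330 for Lama1, -0.0256 for Itgam and -0.0838 for Itgb7, and quantile normalization -0.0721, -0.1276 and -0.1023 for Dag1, Itga4 and Itgb7. Normexp gave 0.0442 for Itga2, 0.0516 for Itgb1bp2, 0.0043 for Itgb3bp, 0.0409 for Itgal and 0.0117 for Itgax. Array weights gave 0.0030 for Itga9 and 0.0063 for Itgb3bp, and the mean over probes 0.0521 for Itgb5 and -0.1625 for Itgam. With 1 array left out the ranges were -0.3785 to 0.2732 (Itga2), -0.1623 to 0.0406 (Itga9), -0.3347 to 0.0359 (Itgb1bp2), -0.0779 to 0.0350 (Itgb3bp), -0.3341 to 0.0294 (Itgbl1), -0.2924 to 0.2164 (Itgal), -0.0113 to 0.3011 (Itgam), -0.1827 to 0.0148 (Itgb2), -0.0289 to 0.1895 (Itgb7) and -0.0179 to 0.5625 (Fshr). The cause of these changes was not tested. Signal near background limits 4 probes that were above it on fewer than 8 arrays, among them those of Itga8, Lamc3 and Itgax.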

Other observations

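All 10 oocyte genes tested, among them the zona pellucida genes Zp1, Zp2 and Zp3 and the growth factor genes Gdf9 and Bmp15, were higher on the PMSG arrays by 1.14 to 2.22. Their mean level was -1.97 to -1.24 over the control arrays and -0.24 to 0.56 over the PMSG arrays. Of 9 granulosa markers tested (55.6% called), 2 were higher (Amh and Esr2) and 3 lower (Inhba, Nr5a2 and Fst). Of 10 fibroblast and smooth muscle markers (30% called), Dcn, Lum and Pdgfra were higher and 0 lower. The adipocyte list had 1 higher gene of 8, Cidea (12.5% called). Of 6 tested striated muscle markers (33.3% called), Tnnt3 was higher and Acta1 lower. Over all tested genes, 34.5% were called. The relation of these lists to the laminin and integrin values was not tested.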
